A study of Bos taurus with 20 samples.

Results

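The genes described here are COL4A1, COL4A2, LAMA1, LAMB1, LAMC1 and FN1, which encode both chains of the common type IV collagen, the 3 chains of a laminin and fibronectin. They were picked by symbol, and all 6 were present among the 15542 genes of the deposited expression table. RNA had been sequenced from bovine embryos flushed from the uterus on day 14, when the cattle conceptus elongates. The 20 libraries fell into 4 groups. Vitrified embryos gave 2 whole-embryo libraries and 7 of the trophectoderm (TE), the outer epithelium that attaches to the uterus, and fresh embryos gave 6 whole-embryo libraries and 5 of TE. Vitrification cools embryos to a glass without ice crystals for storage, and the fresh groups had not undergone it. The submitters counted 9 vitrified and 12 fresh embryos, and the labels do not say which TE sample came from which embryo, how the TE was isolated, or whether libraries shared a batch, so batch and group cannot be told apart. P-values therefore measure the spread between these samples, which may in part be technical.

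Basement membranes are thin sheets of matrix on which epithelia rest. A laminin is a trimer of an α, a β and a γ chain that polymerises at the cell surface, and type IV collagen is a trimer of α chains that forms a second, crosslinked network, to which nidogen, perlecan and other proteins bind. Fibronectin is a dimer that cells assemble into fibrils through integrins. In mouse embryos, primitive endoderm and its derivatives make large amounts of laminin and type IV collagen for the membrane that lines the trophoblast; in cattle the hypoblast, the equivalent layer, spreads beneath the TE before elongation.

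On the UMD3.1 assembly, the genomic spans were as follows, introns included. LAMA1 lay on chromosome 24 from 40384895 to 40508688 on the minus strand. LAMB1 lay on chromosome 4 from 49263419 to 49339823 on the minus strand, and LAMC1 on chromosome 16 from 65545497 to 65662820 on the plus strand. COL4A1 ran from 88876125 to 89009423 on the minus strand of chromosome 12, and COL4A2 from 89112423 to 89165256 on its plus strand. These collagen genes point away from each other, and the 103 kb between their annotated starts held 0 genes of the table. In humans and mice they start close together from a shared promoter, so the annotated 5′ ends may be incomplete here, and any reads beyond them are not in the values. FN1 lay on chromosome 2 from 103881402 to 103950563 on the minus strand.

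Levels are given as reads of a gene per M reads of the library (M stands for 1000000), which were recovered from the deposited RPKM. RPKM had been scaled to the genomic span and not to the exons, so levels of different genes are not compared. Libraries held 6.01 to 14.53 M reads. Fresh TE libraries stood apart from the rest: 33.8 to 40.3% of their reads fell in listed genes, against 57.5 to 63.9% in the other 15 libraries. Of the listed-gene reads, 1.09 to 1.41% were mitochondrial mRNA in fresh TE, against 3.01 to 9.87% in the other 15 libraries. Fresh TE replicates 1 and 2 were nearly alike, as were replicates 3 and 4 (chi-square per degree of freedom 1.88 and 1.48, against 11.9 to 22.6 for the other pairs of that group). They differed by more than counting noise and were kept as separate samples, with their averages as an alternative. All comparisons with fresh TE rest on these 5 libraries.

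LAMA1, the α1 chain, had its highest levels in vitrified TE and its lowest in fresh TE. Vitrified whole embryos had 58.0 and 21.7 reads per M; vitrified TE ranged from 65.3 to 117 with a median of 86.9. Fresh whole embryos ranged from 32.6 to 52.3 with a median of 48.3, and fresh TE had 25.4, 24.1, 17.2, 17.6 and 19.0 reads per M. All 7 vitrified TE samples were above all samples of the other groups, and the fresh whole embryos were all above fresh TE. The vitrified whole embryos lay on either side of the fresh ones, with 1 above and 1 below them all.

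LAMB1, the β1 chain, followed the same order. Vitrified whole embryos had 112 and 63.3 reads per M, and vitrified TE ranged from 135 to 186 with a median of 138. Fresh whole embryos ranged from 66.2 to 117 with a median of 85.2, and fresh TE had 42.1, 36.6, 48.8, 49.3 and 42.0. Vitrified TE was above every other sample and fresh TE below every other sample. The spread among the 7 vitrified TE samples was small, with a coefficient of variation of 12.5%.

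LAMC1, the γ1 chain that is shared by most laminins, had 18.7 and 10.3 reads per M in vitrified whole embryos and 21.0 to 37.9 with a median of 30.1 in vitrified TE. It ranged from 6.47 to 13.3 with a median of 9.21 in fresh whole embryos. In fresh TE it had 2.75, 2.83, 3.57, 4.12 and 4.48 reads per M, which came from 17 to 30 reads a library. The ranges of vitrified TE, fresh whole embryos and fresh TE did not touch, and only the vitrified whole embryos overlapped a neighbour, the fresh whole embryos.

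COL4A1, the α1 chain of type IV collagen, had 33.5 and 17.5 reads per M in vitrified whole embryos and 31.3 to 72.6 with a median of 40.7 in vitrified TE. It ranged from 13.5 to 34.9 with a median of 24.1 in fresh whole embryos and had 17.5, 15.5, 11.7, 12.6 and 10.8 in fresh TE. Among the 6 genes it was the one whose groups ran into each other most: each whole-embryo group overlapped vitrified TE, and fresh whole embryos also overlapped fresh TE.

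COL4A2, the α2 chain, was close to absent from fresh TE. Vitrified whole embryos had 2.97 and 3.91 reads per M, vitrified TE 4.66 to 13.3 with a median of 8.37, and fresh whole embryos 1.16 to 2.92 with a median of 1.42. Fresh TE had 0.162, 0, 0.509, 0.137 and 0.299 reads per M, or 1, 0, 4, 1 and 2 reads, which sum to 8 reads among 34.0 M. No ranges overlapped, though the gap between the whole-embryo groups was narrower than 1 read. The groups stood in the order vitrified TE, vitrified whole embryos, fresh whole embryos and fresh TE. The counts were low in every group (at most 115 reads in a library), so counting error is a larger part of its spread than for the other 5 genes.

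FN1, fibronectin, had 709 and 380.3 reads per M in vitrified whole embryos and 625.2 to 870.4 with a median of 787 in vitrified TE. It ranged from 397 to 803 with a median of 628 in fresh whole embryos, and had 295, 246, 179, 181 and 144 in fresh TE. Fresh TE was below every other sample. The other groups overlapped each other, so that for FN1 the order of vitrified TE, fresh whole embryos and vitrified whole embryos by their means was within their spread. The plot of levels in every library shows these patterns gene by gene.

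**Figure D1:**
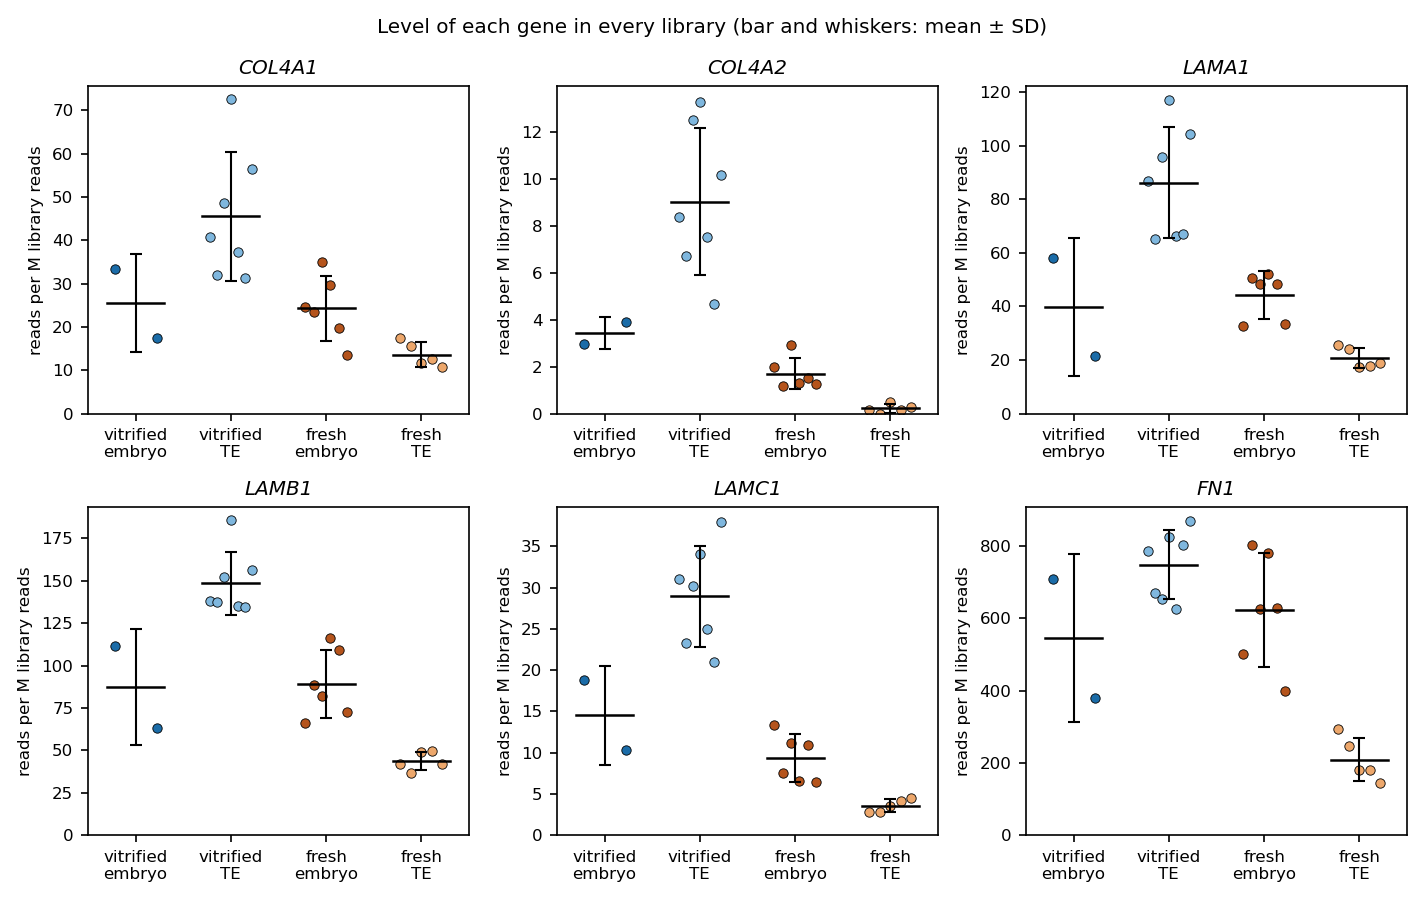
Reads per M library reads of each gene (vertical axes, each with its own scale) in every library of the 4 groups (points), with the group mean and SD (bar and whiskers; 2, 7, 6 and 5 libraries from left to right). Vitrified TE has the highest mean and fresh TE the lowest in all 6 panels, and COL4A2 is at 0 to 0.509 in fresh TE.

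In TE, all 6 genes were higher after vitrification. Mean levels in vitrified TE and fresh TE were 86.1 ± 20.7 and 20.7 ± 3.84 reads per M for LAMA1, 149 ± 18.5 and 43.8 ± 5.31 for LAMB1, and 28.9 ± 6.12 and 3.55 ± 0.767 for LAMC1 (SD, n = 7 and 5). They were 45.5 ± 14.9 and 13.6 ± 2.79 for COL4A1, 9.03 ± 3.13 and 0.222 ± 0.193 for COL4A2, and 748 ± 96.1 and 209 ± 60.5 for FN1. The log2 fold changes, on the scale of log2(reads per M + 0.5), were 2.02 ± 0.20 for LAMA1, 1.75 ± 0.16 for LAMB1, 2.85 ± 0.20 for LAMC1, 1.67 ± 0.22 for COL4A1, 3.69 ± 0.25 for COL4A2 and 1.87 ± 0.19 for FN1 (SE). In limma over all genes tested, the adjusted p was between 6.5e-13 for COL4A2 and 2.3e-07 for COL4A1. Fewer cells of a type and less RNA per cell cannot be told apart in such samples.

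These calls have to be read against the rest of the table, since 72.1% of the 10599 genes tested were called higher in vitrified TE and 6.79% lower. A call of all 6 genes is close to that background and is not a result about them. The groups did not overlap for any of the 6 genes, against 54.6% of all genes whose groups did not overlap with vitrified TE higher. The size of the change differed more between the genes: the median log2 fold change of all genes was 1.02, and the fold changes of COL4A2 and LAMC1 ranked at the 98.1st and 93.4th percentiles of all genes tested. LAMA1, FN1, LAMB1 and COL4A1 ranked at the 81.9th, 78.7th, 75.3rd and 72.9th. For COL4A2 the ratio of pooled levels was 38.5 with an exact 95% interval of 19.4 to 89.5, which covers counting error only, because only 8 reads stand behind the level in fresh TE.

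**Figure D2:**
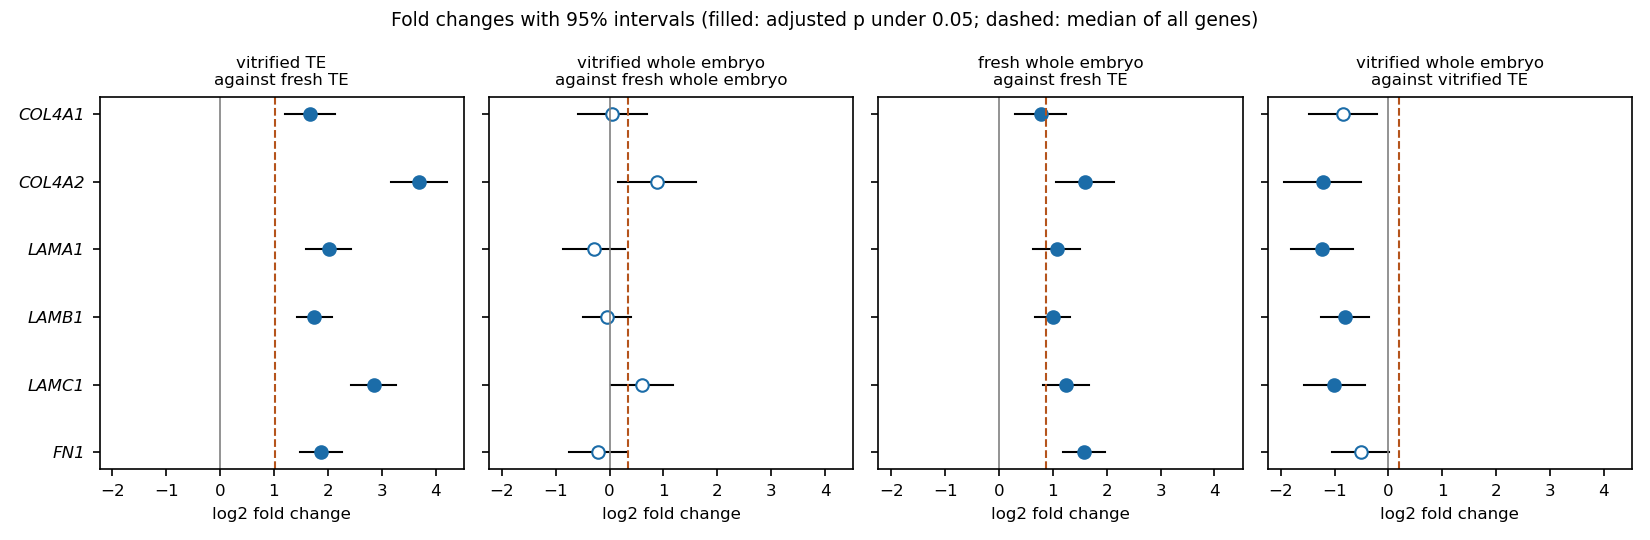
Log2 fold changes with 95% intervals (horizontal axes) of the 6 genes in the 4 pairwise comparisons, with calls filled and the median of all genes tested as a dashed line (1.02 in the leftmost panel). All 6 genes lie to the right of that line in vitrified against fresh TE, and the 4 genes called in vitrified whole embryos against vitrified TE lie left of 0.

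How libraries were scaled moved the fold changes but ended no call in TE. The scales set each library by all its reads, by the reads of the listed genes, by a median ratio over genes, or by quantiles; the median log2 fold change of all genes was 1.02, 0.62, 0.18 and -0.07 in turn. LAMC1 was higher by 2.85, 2.33, 1.83 and 1.65 in that order, and COL4A2 by 3.69, 3.95, 3.15 and 2.63. COL4A1 was higher by 1.67, 1.06, 0.58 and 0.61, and its largest adjusted p was 0.032 in limma with median-ratio scaling. Under every one of the 4 scales the 6 genes stayed above the median of all genes. The share of all genes called higher was 51.8% by listed-gene reads, 37.6% by median ratio and 29.2% by quantiles, where all 6 genes were still called.

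**Figure D3:**
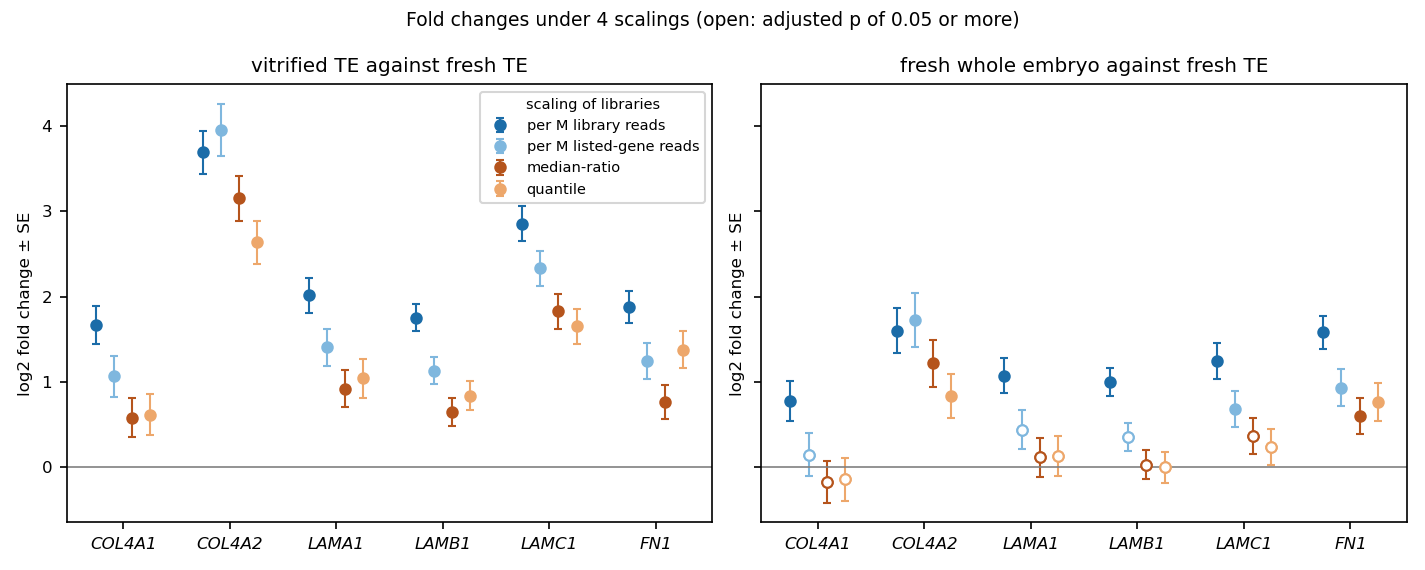
Log2 fold changes with SE (vertical axes) of the 6 genes under 4 ways of scaling libraries, for vitrified against fresh TE and for fresh whole embryos against fresh TE. In TE all points are filled, that is past the threshold, and COL4A2 and LAMC1 stand highest; in the other panel COL4A1, LAMA1 and LAMB1 come down to about 0 under median-ratio and quantile scaling.

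Ratios of 2 genes within a library do not depend on the scaling, and they showed that the chains did not change by equal amounts. In vitrified TE there were 14.9 to 25.8 reads of COL4A2 per 100 reads of COL4A1, against 0 to 4.35 in fresh TE. The log2 ratio (with 5 reads added to each gene) was higher by 1.61, or 3.06-fold, and the groups did not overlap (exact two-sided permutation test, p = 0.0025, adjusted p = 0.015 over 24 tests). This p is the smallest that 7 against 5 samples allow. The size depends on the reads added: with 0.5 reads in place of 5 the log2 difference was 3.43, with the same adjusted p. Fresh TE libraries had 0 to 4 reads of COL4A2, fewer than the 5 added, so their depth enters the size as well. LAMC1 rose more than its partner chains: LAMA1 reads per 100 LAMC1 reads numbered 265 to 344 in vitrified TE and 423 to 924 in fresh TE, a log2 difference of -0.77. LAMB1 reads per 100 LAMC1 reads numbered 412 to 643 in vitrified TE and 937 to 1529 in fresh TE, a log2 difference of -1.03, and COL4A1 over LAMC1 differed by -1.12. For these 3 ratios the groups did not overlap either, with the same exact permutation p = 0.0025 and adjusted p = 0.015. With the near-identical fresh TE libraries averaged, the log2 differences of the 4 ratios were 1.54, -0.70, -0.97 and -1.02, and the adjusted p was 0.10, since 7 against 3 samples allow no smaller one here.

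LAMA1 over LAMB1 and FN1 over COL4A1 did not pass in TE. The log2 differences were 0.26 (exact permutation p = 0.149, adjusted p = 0.358) and 0.23 (exact permutation p = 0.248, adjusted p = 0.392). LAMA1 reads per 100 LAMB1 reads averaged 43.1 ± 12.5 in vitrified whole embryos, 57.4 ± 8.22 in vitrified TE, 50.1 ± 6.45 in fresh whole embryos and 48.5 ± 14.1 in fresh TE (SD). For FN1 over COL4A1 the vitrified TE samples ranged from 1138 to 2565 reads per 100, on both sides of the 1342 to 1686 of fresh TE.

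**Figure D4:**
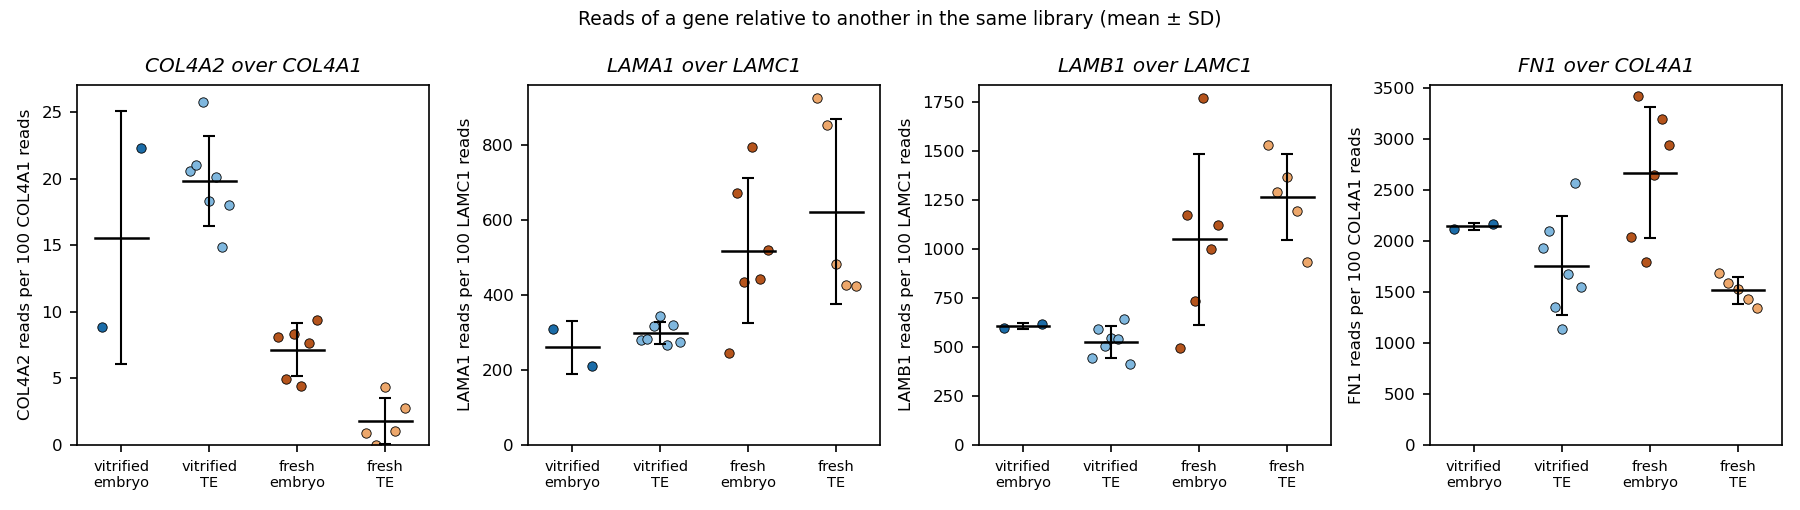
Reads of 1 gene per 100 reads of another in the same library (vertical axes) for 4 ratios, by group, with the mean and SD. COL4A2 per 100 COL4A1 is 14.9 to 25.8 in vitrified TE and 0 to 4.35 in fresh TE, and both ratios to LAMC1 are lower in vitrified TE than in fresh TE.

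Between whole embryos, none of the 6 genes passed the test for an effect of vitrification. The log2 fold change of vitrified against fresh whole embryos was 0.88 ± 0.36 for COL4A2 (95% interval 0.15 to 1.61, limma adjusted p = 0.067) and 0.60 ± 0.28 for LAMC1 (0.02 to 1.18, limma adjusted p = 0.117). It was 0.05 ± 0.31 for COL4A1 (-0.59 to 0.70), -0.05 ± 0.22 for LAMB1 (-0.50 to 0.39), -0.22 ± 0.26 for FN1 (-0.76 to 0.31) and -0.29 ± 0.28 for LAMA1 (-0.87 to 0.29). Over all genes tested, 22.4% were called higher and 3.89% lower, so calls were possible with these samples.

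COL4A2 was the only one of the 6 whose whole-embryo groups did not overlap, with 2.97 and 3.91 reads per M in vitrified and 1.16 to 2.92 in fresh whole embryos. The gap was narrower than 1 read: the nearest samples had 2.966 and 2.917, and 1 read in vitrified whole embryo 1 is worth 0.119 reads per M. Whole-embryo groups did not overlap for 29.4% of all genes with the vitrified group higher. The pooled ratio was 1.94 (exact 95% interval 1.39 to 2.68, counting error only). Without fresh whole embryo 3, its highest fresh sample, COL4A2 passed with a log2 fold change of 1.02 (limma adjusted p = 0.030). Of the vitrified whole embryos, replicate 1 had more reads per M than replicate 2 of LAMA1, LAMB1, LAMC1, COL4A1 and FN1, and less of COL4A2. The direction for LAMA1, LAMB1 and FN1 turned when replicate 2 was left out (log2 fold changes of 0.41, 0.35 and 0.23), and LAMA1 passed as lower without replicate 1 (-0.99, limma adjusted p = 0.029).

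The effect of vitrification differed between whole embryos and TE for all 6 genes. The difference of the log2 fold changes, whole embryo minus TE, was -2.31 ± 0.35 for LAMA1, -1.80 ± 0.27 for LAMB1 and -2.25 ± 0.35 for LAMC1 (SE). It was -1.61 ± 0.38 for COL4A1, -2.81 ± 0.44 for COL4A2 and -2.10 ± 0.32 for FN1, with limma adjusted p between 7.5e-06 for LAMB1 and 0.0015 for COL4A1. Of all genes tested, 39.7% were called with a lower effect in whole embryos and 3.53% with a higher one, and the median difference was -0.68. For COL4A1 the difference did not pass with median-ratio scaling (-0.85, limma adjusted p = 0.114) or quantile normalization (-0.96, limma adjusted p = 0.089); the other 5 passed under all 4 scales. This difference combines all 4 groups, and the fresh TE libraries that stood apart enter it.

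Among fresh samples, whole embryos had higher levels than TE for all 6 genes as deposited. Means in fresh whole embryos and fresh TE were 44.3 ± 8.80 and 20.7 ± 3.84 reads per M for LAMA1, 89.1 ± 19.9 and 43.8 ± 5.31 for LAMB1, and 9.33 ± 2.86 and 3.55 ± 0.767 for LAMC1 (SD, n = 6 and 5). They were 24.3 ± 7.46 and 13.6 ± 2.79 for COL4A1, 1.70 ± 0.667 and 0.222 ± 0.193 for COL4A2, and 623 ± 157 and 209 ± 60.5 for FN1. The log2 fold changes were 1.07 ± 0.21 for LAMA1, 0.996 ± 0.16 for LAMB1, 1.25 ± 0.21 for LAMC1, 0.78 ± 0.23 for COL4A1, 1.60 ± 0.26 for COL4A2 and 1.58 ± 0.19 for FN1 (SE), with limma adjusted p from 5.4e-08 for FN1 to 0.0042 for COL4A1. Of all genes tested, 66.5% were called higher and 6.43% lower, with a median of 0.88, so the count of 6 is again close to the background.

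The call that fresh whole embryos exceeded fresh TE held under all 4 scales for COL4A2 and FN1 only. With listed-gene reads LAMC1 passed as well, against 44.6% of all genes called higher, and with median-ratio scaling and quantile normalization those 2 of the 6 passed, against 33.5% and 26.9%. COL4A1 turned to -0.18 with median-ratio scaling and -0.14 with quantile normalization, and LAMB1 to -0.0051 with quantile normalization. LAMA1 had 0.11 and 0.13 and LAMC1 0.36 and 0.24 under those 2 scales, without passing. FN1 reads per 100 COL4A1 reads numbered 1793 to 3418 in fresh whole embryos and 1342 to 1686 in fresh TE, without overlap, a 1.77-fold higher ratio on the log2 scale with 5 reads added (exact two-sided permutation p = 0.0043, adjusted p = 0.021). With the near-identical fresh TE libraries averaged, the adjusted p of this ratio was 0.114. Per M library reads the groups did not overlap for 5 of the 6 genes, COL4A1 being the exception. The share of all genes without overlap and with fresh whole embryos higher was 48.4%. Per M listed-gene reads only COL4A2 stayed without overlap, against 26.4% of all genes. COL4A2 per 100 COL4A1 reads, 4.44 to 9.42 in fresh whole embryos and 0 to 4.35 in fresh TE, did not pass with 5 reads added (log2 difference 0.42, exact permutation p = 0.074, adjusted p = 0.252) and passed with 0.5 added (1.97, exact permutation test, adjusted p = 0.035).

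Among vitrified samples the order was the other way round, with whole embryos lower than TE. LAMA1 (log2 fold change -1.23 ± 0.28, limma adjusted p = 0.014), COL4A2 (-1.22 ± 0.35, 0.030), LAMC1 (-1.004 ± 0.28, 0.028) and LAMB1 (-0.81 ± 0.21, 0.025) were lower in vitrified whole embryos than in vitrified TE. COL4A1 (-0.84 ± 0.31, limma adjusted p = 0.078) and FN1 (-0.52 ± 0.26, limma adjusted p = 0.181) did not pass. Only 1.95% of all genes tested were called lower in vitrified whole embryos and 7.77% higher. The 4 genes called were also those whose groups did not overlap, a pattern shown by 5.94% of all genes with the whole embryos lower. All 6 genes had negative values under each of the 4 scales, and as deposited they ranked at or under the 10.2nd percentile of all genes tested.

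This comparison rests on 2 whole embryos, and its calls on replicate 2. Without it, no gene of the 10599 passed, and the log2 fold changes were -0.53 for LAMA1, -1.39 for COL4A2, -0.58 for LAMC1 and -0.40 for LAMB1. Without replicate 1, 488 genes passed, LAMA1, LAMB1 and LAMC1 among them, and COL4A2 did not (-1.04, limma adjusted p = 0.173). None of the 6 ratios of genes within a library could reach p = 0.05 against 2 samples in an exact permutation test, where the smallest possible p is 0.056.

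Markers of cell layers were summed in each library. By the median of these sums, hypoblast markers were highest in vitrified TE and lowest in fresh TE. TE markers were highest in vitrified TE and lowest in fresh whole embryos. TE markers such as KRT8 and KRT18 were high in all groups, and their summed level over 14 genes was 11545 and 13994 reads per M in vitrified whole embryos, 9892 to 14497 in vitrified TE, 6476 to 8992 in fresh whole embryos and 8604 to 10951 in fresh TE. Per M listed-gene reads the medians were 22513 in vitrified TE and 25482 in fresh TE, the other way round. In vitrified against fresh TE 8 of the 14 were called higher and 2 lower, against 72.1% and 6.79% of all genes. Between whole embryos 7 were higher and 0 lower after vitrification, against 22.4% and 3.89% of all genes. In fresh whole embryos against fresh TE 4 of the 14 were higher and 8 lower, against 66.5% and 6.43% of all genes. Hypoblast and yolk sac markers were 14 genes without the 6 described here, led by APOA1, DAB2 and LRP2. They include the matrix gene SPARC, which is also counted below among other components of basement membranes. They summed to 1517 and 2735 reads per M in vitrified whole embryos and 2206 to 3883 in vitrified TE. The sums were 1835 to 2983 in fresh whole embryos and 690.2 to 1129 in fresh TE. In fresh TE 6 of the 14 had under 10 reads in every library, among them GATA4, GATA6, SOX17 and FOXA2, transcription factors of the hypoblast. In vitrified TE CUBN was the only one so low, and in fresh whole embryos GATA6 and CUBN were as low. All 13 tested hypoblast markers were called higher in vitrified than in fresh TE, against 72.1% of all genes. Their median log2 fold change was 2.46, the value of SPARC, against 1.02 for all genes. Under each of the other 3 scales 10 of the 13 were higher, and with median-ratio scaling 2 were lower. In fresh whole embryos against fresh TE 11 were higher and 0 lower, against 66.5% and 6.43% of all genes. In vitrified against fresh whole embryos 4 were higher and 1 lower, against 22.4% and 3.89%, where none of the 6 genes passed. In vitrified whole embryos against vitrified TE 0 were higher and 1 lower, against 7.77% and 1.95%, where 4 of the 6 genes were lower. GATA4 had 7.93 ± 2.46 reads per M in vitrified TE and 0.258 ± 0.174 in fresh TE (SD, n = 7 and 5), so the samples labelled TE differed in the markers of the layer beneath it. The part of these marker levels in the changes of the 6 genes was not tested.

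Epiblast markers were lowest in fresh TE and highest by their median in vitrified whole embryos. The 12 genes summed to 115 and 231 reads per M in vitrified whole embryos and 65.1 to 104 in vitrified TE. The sums were 52.6 to 118 in fresh whole embryos and 12.1 to 29.3 in fresh TE. Of the 12, 10 had under 10 reads in every library of fresh TE, 7 in vitrified TE and 3 in each whole-embryo group. Fresh TE libraries held 2.03 to 3.09 M listed-gene reads, against 3.51 to 8.73 M in the other 15 libraries. Depth therefore enters the counts of genes under 10 reads in every marker list. Mesenchyme and mesoderm markers, which include the fibrillar collagens COL1A1 and COL1A2, were near 0 throughout. Their 15 genes summed to 1.07 and 7.37 reads per M in vitrified whole embryos, 1.42 to 2.94 in vitrified TE, 1.96 to 4.46 in fresh whole embryos and 1.998 to 3.57 in fresh TE, with 13 to 15 of the 15 under 10 reads in every library of a group. Markers of the maternal endometrium summed to at most 83.0 reads per M, in a fresh whole embryo, in the 9 genes found. Those of blood and immune cells had their highest sum in fresh TE. The 8 genes summed to 7.65 and 10.3 reads per M in vitrified whole embryos and 9.31 to 14.7 in vitrified TE. They summed to 7.36 to 10.5 in fresh whole embryos and 23.1 to 36.8 in fresh TE. The sums of fresh TE did not overlap with the other 15 libraries. In fresh TE 7 of these 8 had under 10 reads in every library, and AIF1, which macrophages express, made up most of the sum. Of the 4 blood and immune markers tested, 3 were called higher and 1 lower in vitrified than in fresh TE. The counts were the same in fresh whole embryos against fresh TE. Of all genes, 72.1% and 66.5% were called higher in these comparisons. The part of these markers in the levels of fresh TE was not tested.

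The lists of related genes are set against the shares of all genes called, and a share near those is not a result about a list. In vitrified against fresh TE 72.1% of all genes were higher as deposited, 37.6% with median-ratio scaling and 29.2% with quantile normalization. Those lower were 6.79%, 27.1% and 32% in the same order. In fresh whole embryos against fresh TE 66.5%, 33.5% and 26.9% were higher in that order, and 6.43%, 24.9% and 28.5% lower. In vitrified against fresh whole embryos 22.4%, 8.88% and 8.64% were higher, and 3.89%, 7.69% and 8.03% lower. As deposited, 7.77% were higher and 1.95% lower in vitrified whole embryos against vitrified TE. Calls of list genes in that comparison, like those of the 6 genes, rest on replicate 2 of the vitrified whole embryos.

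Other components of basement membranes were mostly higher in vitrified than in fresh TE, at a share near that of all genes. Of 40 genes listed, 33 were in the table and 13 had enough reads to be tested. In vitrified against fresh TE 11 of the 13 were higher, against 72.1% of all genes, and 0 lower (median log2 fold change 1.43, against 1.02 for all genes), and 6 of 13 were higher with quantile normalization. FBLN2, a fibulin that binds laminin and fibronectin, had 90.2 ± 21.6 reads per M in vitrified TE and 1.10 ± 0.356 in fresh TE (log2 fold change 5.82 ± 0.22, limma adjusted p = 1.6e-17). SPARC, which binds type IV collagen and is also a marker of parietal endoderm in mice, had 137 ± 34.0 in vitrified TE and 24.2 ± 5.05 in fresh TE (2.46 ± 0.20). HSPG2, the proteoglycan perlecan, had 4.82 ± 2.36 in vitrified TE and 0.140 ± 0.144 in fresh TE, where no library had over 2 reads of it (2.95 ± 0.28). COL15A1 and THBS1 did not pass.

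In whole embryos 2 of these 13 genes were higher after vitrification, with a median of 0.49 against 0.35 for all genes. HSPG2 had 3.07 ± 1.19 reads per M in vitrified and 0.534 ± 0.145 in fresh whole embryos (log2 fold change 1.76 ± 0.39), and FBLN2 had 82.6 ± 30.6 in vitrified and 32.4 ± 11.7 in fresh whole embryos (1.36 ± 0.31; limma adjusted p = 0.0021 and 0.0023). Fresh whole embryos exceeded fresh TE for 9 of the 13 as deposited, against 66.5% of all genes. With quantile normalization 2 were higher and 3 lower, against 26.9% and 28.5% of all genes. FBLN2 (32.4 ± 11.7 in fresh whole embryos and 1.10 ± 0.356 in fresh TE, log2 fold change 4.32) and SPARC (93.8 ± 29.4 and 24.2 ± 5.05, 1.89) led, with LAMB3, a β chain of epithelial laminin, at no more than 1 read in any fresh TE library (1.14). In vitrified whole embryos against vitrified TE 2 of the 13 were lower and 0 higher, against 1.95% and 7.77% of all genes. COL18A1, whose C-terminal fragment is endostatin, had 17.3 ± 6.76 in vitrified whole embryos and 44.0 ± 15.9 in vitrified TE (-1.30). LAMA5, another laminin α chain, had 4.80 ± 1.26 and 10.8 ± 1.61 (-1.10).

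**Figure D5:**
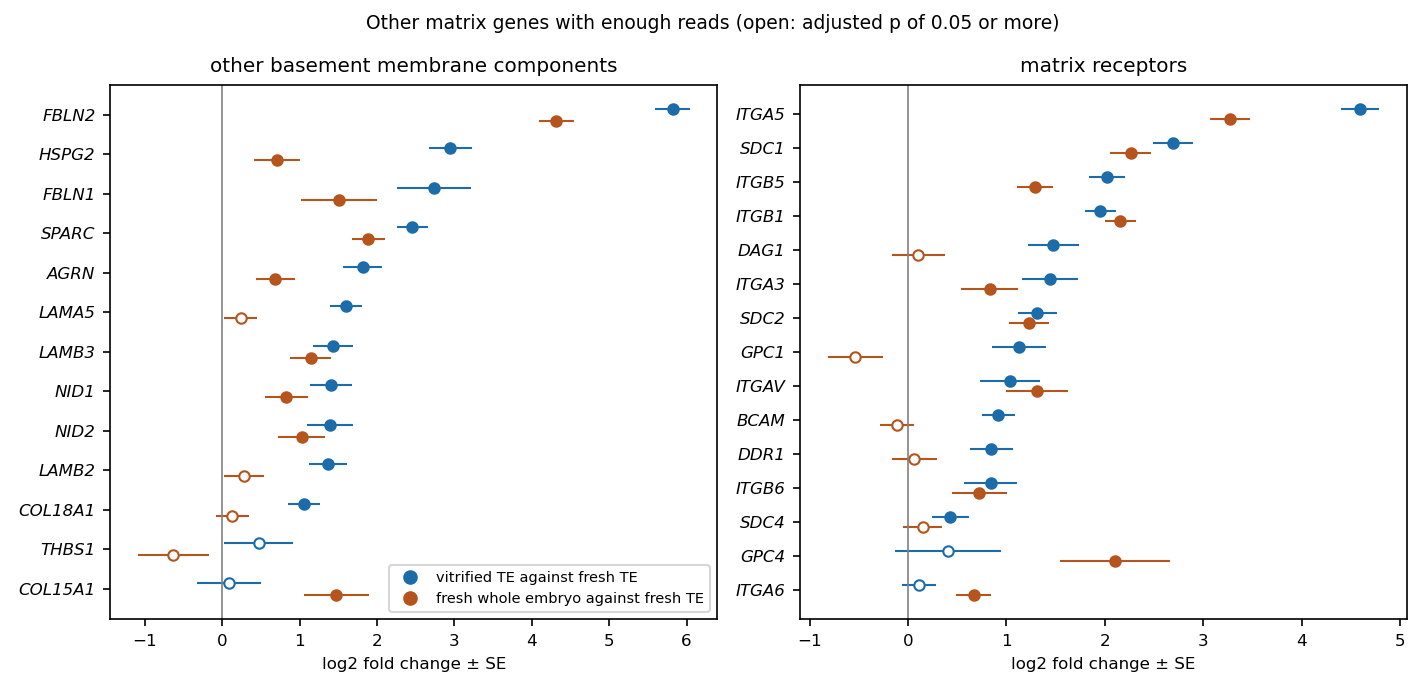
Log2 fold changes with SE (horizontal axes) of the tested genes of other basement membrane components and of matrix receptors, for vitrified against fresh TE and for fresh whole embryos against fresh TE; open points did not pass. FBLN2 at 5.82 and ITGA5 at 4.59 lead the panels in vitrified against fresh TE.

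Receptors for these proteins were tested for 15 of 29 genes listed. In vitrified against fresh TE 13 were higher, against 72.1% of all genes, and 0 lower (median log2 fold change 1.13, against 1.02), and with quantile normalization 4 were higher, against 29.2% of all genes, and 2 lower. ITGA5, the α chain of the main fibronectin receptor, had 114 ± 27.0 reads per M in vitrified TE and 4.18 ± 0.951 in fresh TE (4.59 ± 0.19, limma adjusted p = 5.8e-17). ITGB1, its β chain and that of most laminin and collagen receptors, had 124 ± 22.9 in vitrified TE and 31.7 ± 6.48 in fresh TE (1.95 ± 0.15), and SDC1, a cell surface proteoglycan, had 20.1 ± 3.31 and 2.74 ± 0.744 (2.69 ± 0.20). ITGA6, the α chain of a laminin receptor, did not pass (0.11 ± 0.17, limma adjusted p = 0.562). ITGA5, SDC1 and ITGB1 also led in fresh whole embryos against fresh TE, where they were higher by 3.27, 2.26 and 2.16. There 10 of 15 receptors were higher as deposited, against 66.5% of all genes. With quantile normalization 4 were higher and 5 lower, against 26.9% and 28.5% of all genes.

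In whole embryos DAG1, dystroglycan, was the single receptor that was higher after vitrification (1.37 ± 0.592 reads per M in vitrified and 0.397 ± 0.186 in fresh whole embryos, log2 fold change 1.05 ± 0.36, limma adjusted p = 0.035). It did not pass under the other 3 scales, and median-ratio scaling called 0 receptors higher and 2 lower. Between vitrified whole embryos and vitrified TE, ITGAV, an α chain of vitronectin receptors, was higher (3.67 ± 0.656 in vitrified whole embryos and 1.17 ± 0.503 in vitrified TE, 1.36), a call that was lost under the other 3 scales. ITGA5 (63.5 ± 22.5 in vitrified whole embryos and 114 ± 27.0 in vitrified TE, -0.85) and GPC1, a glypican, (3.23 ± 0.301 and 8.54 ± 3.12, -1.20) were lower, and scaling by listed-gene reads left 1 receptor lower.

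Genes for collagen processing and secretion were tested for 22 of 30 listed. In vitrified against fresh TE 18 were higher, against 72.1% of all genes, and 1 lower as deposited, and 7 were higher, against 37.6% of all genes, and 4 lower with median-ratio scaling. MIA3, which loads collagen into transport vesicles, had 131 ± 16.1 reads per M in vitrified TE and 26.1 ± 3.66 in fresh TE (log2 fold change 2.30 ± 0.13). P3H1, a prolyl 3-hydroxylase, was higher by 2.04 ± 0.19 and SERPINH1, the collagen chaperone HSP47, by 1.92 ± 0.20. The lower one was TGM2, a transglutaminase that crosslinks matrix proteins, with 0.879 ± 0.802 reads per M in vitrified TE and 7.21 ± 1.88 in fresh TE (-2.60 ± 0.29). In whole embryos 3 were higher after vitrification and TGM2 was lower (-1.11 ± 0.41), a call lost with listed-gene reads. Median-ratio scaling gave 1 higher and 1 lower, and quantile normalization 2 higher and 3 lower. The higher ones as deposited were SEC13, a coat protein of secretory vesicles (196 ± 35.8 in vitrified and 96.5 ± 24.6 in fresh whole embryos, 1.04), MIA3 (0.70) and P4HB, protein disulphide isomerase and a subunit of prolyl 4-hydroxylase (0.57). Fresh whole embryos against fresh TE gave 13 higher, against 66.5% of all genes, and TGM2 lower (-1.38) as deposited. With median-ratio scaling 3 were higher and 5 lower, against 33.5% and 24.9% of all genes. P3H1 (1.81), MIA3 (1.44) and SEC24D, another vesicle coat protein (1.97), had the smallest p as deposited. SERPINH1 was lower in vitrified whole embryos than in vitrified TE (15.4 ± 2.67 and 38.0 ± 10.7, log2 fold change -1.24 ± 0.28, limma adjusted p = 0.013), as was P4HA2, an α subunit of prolyl 4-hydroxylase (-0.74).

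Among genes of matrix remodelling, 18 of 34 listed were tested, and 11 were higher and 0 lower in vitrified than in fresh TE, a smaller share than the 72.1% of all genes (9 higher, against 37.6% of all genes, and 4 lower with median-ratio scaling). SERPINE2, a protease inhibitor, was higher by 3.27 ± 0.20, ADAM9, a membrane metalloprotease, by 2.76 ± 0.22 and BSG, an inducer of metalloproteases, by 2.02 ± 0.14. In whole embryos 4 were higher and 3 lower after vitrification, and 1 higher and 3 lower with quantile normalization. PLAU, urokinase, had 59.0 ± 28.4 reads per M in vitrified and 416 ± 133 in fresh whole embryos (log2 fold change -2.83 ± 0.55, limma adjusted p = 0.0015). It stayed negative on all 4 scales, and its groups did not overlap. BSG was higher by 1.05 ± 0.20. TIMP1, a metalloprotease inhibitor, was also lower (-0.86 ± 0.30), and the other higher genes were ADAM17, ADAM9 and MMP23. In fresh whole embryos against fresh TE 12 were higher, SERPINE2 (3.30) and ADAM9 (2.503) among them, and MMP15 was lower (-1.20). In vitrified whole embryos against vitrified TE MMP15, a membrane-type metalloprotease, was lower as well (6.21 ± 0.104 and 16.2 ± 4.73, -1.27).

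The intracellular side of integrin adhesions was covered by 16 tested genes of 20 listed. In vitrified against fresh TE 15 were higher, against 72.1% of all genes, and 0 lower, with a median log2 fold change of 1.97 against 1.02 for all genes, and 12 were higher and 1 lower with quantile normalization. ACTN4, an actin crosslinker, had 42.6 ± 15.4 reads per M in vitrified TE and 0.236 ± 0.0815 in fresh TE, where no library had over 2 reads. TLN2, a talin that links integrins to actin, was higher by 3.19 ± 0.24 and VCL, vinculin, by 2.01 ± 0.16. In whole embryos 8 of the 16 were higher after vitrification, against 22.4% of all genes, and 0 lower (median 0.95, against 0.35 for all genes), and 5 were higher with quantile normalization. They were led by ILK, integrin-linked kinase (45.1 ± 5.55 in vitrified and 21.2 ± 3.27 in fresh whole embryos, 1.08 ± 0.22, limma adjusted p = 0.00088), FLNA, filamin A (1.32 ± 0.29), and BCAR1, an adaptor of focal adhesions (1.45 ± 0.33). Fresh whole embryos against fresh TE gave 10 higher, against 66.5% of all genes, and 0 lower, with VCL (1.89), TLN2 (2.39) and ACTN4 (3.43) first. With quantile normalization 4 were higher and 3 lower, against 26.9% and 28.5% of all genes. Of vitrified whole embryos against vitrified TE 0 of 16 passed in limma with adjustment over all genes; FLNA, with the smallest p, had a log2 fold change of -0.80 ± 0.29 (limma adjusted p = 0.072).

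The 6 genes varied together to different degrees from library to library. Over the 20 libraries, which share groups and depth, Pearson's r of log2 levels per M listed-gene reads was 0.93 between LAMA1 and LAMB1, 0.94 between COL4A2 and LAMC1 and 0.92 between COL4A1 and LAMA1. It was 0.70 between COL4A1 and COL4A2. After the group means were taken out, r was 0.83 between COL4A1 and LAMA1, 0.82 between LAMA1 and FN1 and 0.75 between LAMA1 and LAMB1. It was 0.24 between COL4A1 and COL4A2 and 0.26 between LAMB1 and LAMC1, so in these values the chains of a single trimer were not always the closest pairs. Fresh TE libraries held only 0 to 4 reads of COL4A2 and 17 to 30 of LAMC1, so counting error enters the r of both. These values describe the libraries and carry no test.

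Among 9671 genes with a name that were tested, those with the highest r over the 20 libraries were SLC2A3 (0.91) and APLP2 (0.89) for LAMA1, APLP2 (0.89) and BCL2L13 (0.89) for LAMB1, and CALD1 (0.96) and TNKS1BP1 (0.95) for LAMC1. They were GABARAPL1 (0.88) and CAMSAP1 (0.86) for COL4A1, GLG1 (0.98) and IPO4 (0.97) for COL4A2, and SPARC (0.94) and GDPD2 (0.92) for FN1. For deviations from the group means they were COL18A1 (0.85) and SPARC (0.85) for COL4A1, MT-ATP6 (0.89) and SPARC (0.86) for LAMA1, and FBLN2 (0.78) and DGCR8 (0.78) for LAMC1. MT-ND3 (0.85) and ECPAS (0.84) stood closest to LAMB1, ABCC3 (0.86) and IPO11 (0.85) to FN1, and TTC37 (0.81) to COL4A2.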

How the data were processed

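STAR 2.5.3a with the UMD3.1 assembly, FastQC and Partek are named in the submitters' processing notes; how reads were counted is not stated there. The deposited values were read as RPKM per genomic span with a constant of 0.01 added, a unit inferred from the values: with 0.01 taken off and the span multiplied in, 94.4 to 95.8% of values up to 1000 reads lay within 0.1 of a whole read. Depths of 6.01 to 14.53 M reads per library follow from this. Intervals of pooled ratios cover counting error only, and those of log2 fold changes come from limma and rest on the spread between samples.

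Genes with at least 10 reads in at least 2 libraries (10599; 4943 left out) entered limma 3.58.1 (R 4.3.3) on log2(reads per M + 0.5), with a mean per group, trended and robust eBayes, and Benjamini-Hochberg adjustment over all of them at 0.05. Spread was shared by all 20 libraries. The test was checked on simulated data. Within-library ratios were compared by exact two-sided permutation tests (Python 3.11.15), adjusted over 24 tests. Scaling, pseudocount, filter, sample weights, the replicate number as a block and left-out libraries were varied.

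The 6 genes, 5 lists of related genes and 6 marker lists (246 symbols, 206 found, 1 through a synonym) were chosen with earlier results of these data known. From each list and comparison the text names the 3 called genes of smallest p, or 1 gene if no call was made, and for each of the 6 genes the pairs with the highest r; THBS1, COL15A1, ITGA6, TGM2, TIMP1, ADAM17, MMP23, MMP15 and ADAM9 beyond this rule, and the markers, were named in addition, after their values were seen. Some genes that this rule gives are not reported here. Sequences were not used here.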

Additional observations from a re-analysis of the deposited data

Results flagged for a closer look

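The effect of vitrification (log2 fold change of vitrified against fresh) was lower in whole embryos than in TE for each of the 6 genes, in a test of the difference itself in limma. The differences, whole embryo minus TE, were -1.61 for COL4A1, -2.81 for COL4A2, -2.31 for LAMA1, -1.80 for LAMB1, -2.25 for LAMC1 and -2.10 for FN1. The median difference of all genes tested was -0.68, and 39.7% of them were called with a lower effect in whole embryos. COL4A1 did not pass with median-ratio scaling (limma adjusted p = 0.114) or quantile normalization (limma adjusted p = 0.089).

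Of 36 groups of 4 to 10 samples examined for a sample far from the rest, 2 had one, and chance gives about 1 in 20. Both were vitrified TE replicate 4. Its LAMB1 level was 186 reads per M, against 135 to 156 in the other vitrified TE samples, and its log2 ratio of COL4A1 over LAMC1 was 1.08. It also had the highest summed hypoblast markers of its group, at 3883 reads per M; the part of that in its levels was not tested.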

How the results depend on the processing

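In vitrified against fresh TE, each of the 6 genes kept its direction and its call in all 26 alternatives run, and the number of genes called ranged from 6268 to 9733 (8359 as reported). On log2(RPKM + 1) the values were smaller, from 0.22 for COL4A2 to 1.57 for FN1. The comparisons of whole embryos moved more; values below are log2 fold changes, or genes called out of 10599, and the cause was not tested where none is given.

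Scaling by the reads of listed genes gave -0.0082 for COL4A1 in vitrified against fresh whole embryos, and 0.15 for COL4A1, 0.44 for LAMA1 and 0.35 for LAMB1 in fresh whole embryos against fresh TE, none passing. It gave 428 genes called and -1.34 for COL4A2 (not passed) in vitrified whole embryos against vitrified TE (1031 genes as reported). Median-ratio scaling called 1756 genes in vitrified against fresh whole embryos (2783 as reported), with COL4A1 at -0.27, and 381 in vitrified whole embryos against vitrified TE. In fresh whole embryos against fresh TE it left COL4A1 at -0.18, LAMA1 at 0.11, LAMB1 at 0.026 and LAMC1 at 0.36 without a call, and the difference of effects of COL4A1 at -0.85. Quantile normalization called 1767 genes in vitrified against fresh whole embryos, with COL4A1 at -0.35, and 2841 for the difference of effects (4579 as reported), with COL4A1 at -0.96, not passed. It left COL4A1 at -0.14, LAMA1 at 0.13, LAMB1 at -0.0051 and LAMC1 at 0.24 in fresh whole embryos against fresh TE without a call, and COL4A1 passed in vitrified whole embryos against vitrified TE, at -1.11. On log2(RPKM + 1), COL4A1 at 0.10 and COL4A2 at 0.039 did not pass in fresh whole embryos against fresh TE, and 1998 genes were called in vitrified whole embryos against vitrified TE. In that comparison COL4A2 did not pass with 0.1 reads per M added before the log (-1.30). Weighting the samples left 234 genes called, COL4A2 (-1.22), LAMB1 (-0.80) and LAMC1 (-1.01) not among them. With only the compared groups in the fit, 1853 genes passed in vitrified against fresh whole embryos.

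Deviations from the group means in samples of the same number had correlations of -0.19 to 0.30 over comparisons. Such values cannot decide whether the numbers pair samples, since the deviations of 2 vitrified whole embryos mirror each other. The labels do not say it either, and the main fit did not pair samples. With the replicate number as a block, COL4A1 was at -0.024, LAMB1 at 0.075 and COL4A2 at 1.01 (limma adjusted p = 0.042) in vitrified against fresh whole embryos. In vitrified whole embryos against vitrified TE 64 genes passed under the block, and COL4A2 (-1.05), LAMA1 (-1.23), LAMB1 (-0.67) and LAMC1 (-0.92) did not.

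Leaving out 1 library at a time gave 619 to 3086 genes called in vitrified against fresh whole embryos, with COL4A1 from -0.40 to 0.51, COL4A2 from 0.71 to 1.05, LAMA1 from -0.99 to 0.41, LAMB1 from -0.46 to 0.35 and FN1 from -0.67 to 0.23. In vitrified whole embryos against vitrified TE it gave 0 to 1266 genes, COL4A2 from -1.39 to -1.04, LAMA1 from -1.93 to -0.53, LAMB1 from -1.22 to -0.40 and LAMC1 from -1.42 to -0.58. COL4A2 and LAMC1 also lost the call there without vitrified TE 4 or 7, by a narrow margin (limma adjusted p of 0.050 to 0.056). A lone vitrified whole embryo was assumed to vary like the other groups.

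Of the ratios within libraries, those called in vitrified against fresh TE had log2 differences of 1.54 (COL4A2 over COL4A1), -0.70 (LAMA1 over LAMC1), -0.97 (LAMB1 over LAMC1) and -1.02 (COL4A1 over LAMC1) with near-identical libraries averaged, where fewer samples cannot reach the threshold; FN1 over COL4A1 in fresh whole embryos against fresh TE had 0.86. With 0.5 reads added in place of 5, COL4A2 over COL4A1 passed in fresh whole embryos against fresh TE (1.97, exact permutation test, adjusted p = 0.035). In 6 comparisons of ratios that had not passed, the sign changed when a library was left out. The ranges were -0.24 to 0.078 for LAMA1 over LAMC1, -0.34 to 0.0056 for LAMB1 over LAMC1 and -0.031 to 0.19 for LAMA1 over LAMB1 in fresh whole embryos against fresh TE. They were -0.99 to 0.25 for COL4A2 over COL4A1 and -0.51 to 0.052 for LAMA1 over LAMC1 in vitrified whole embryos against vitrified TE, and -0.53 to 0.058 for LAMA1 over LAMB1 in vitrified against fresh whole embryos. Depth limits COL4A2 most, with 8 reads in all of fresh TE.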
